A study of Homo sapiens with 12 samples.

Results

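The genes described here are 10 sensors, adaptors and controllers of the response to double-stranded RNA, taken by name from the 45416 genes of the table: the sensors *DDX58* (the gene of RIG-I), *IFIH1* (the gene of MDA5), *DHX58* (the gene of LGP2), *TLR3*, *EIF2AK2* (the gene of PKR) and *ZBP1*, the adaptors *MAVS* and *TICAM1* (the gene of TRIF), the kinase *TBK1*, and *ADAR*. They were listed for the detection of a transfected RNA duplex, and *MAVS*, *TICAM1* and *TBK1* act downstream of the sensors. The rule that lists the 10 genes uses names and no measured value. Expression was measured by stranded poly(A) RNA-seq in U251, an established human glioblastoma cell line. Cells were transfected with a control siRNA (siNC) or with 1 of 2 siRNAs against *PD-L1* (siPDL1-1 or siPDL1-2), and 48 h later were left unstimulated or received IFNγ at 100 U/ml for 24 h. These 6 groups held 2 libraries each, 12 in all, and the cells are labelled wild type. All groups, siNC included, received an siRNA duplex, so the comparisons below are between duplexes of different sequence and not between transfected and untransfected cells. The values are CPM, reads scaled to the size of the library, as normalized by the authors. In such bulk samples a change in the share of responding cells and a change in the RNA of each cell cannot be told apart.

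Double-stranded RNA is a sign of viral replication, and vertebrate cells carry sensors for it in the cytosol and in endosomes. RIG-I and MDA5 are RNA helicases that signal through MAVS on mitochondria, and LGP2 modulates both, whereas TLR3 sits in endosomes and signals through TRIF, and both routes reach TBK1, which activates the transcription factor IRF3 and with it the type I and III interferon genes. PKR halts translation by phosphorylating eIF2α, ZBP1 recognizes left-handed duplexes and can start necroptosis, and ADAR edits adenosines in duplexes and so keeps the cell's own RNA from being sensed. Many of the sensor genes are themselves interferon-stimulated genes, and their promoters are known for elements bound by IRF and STAT factors.

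Short patterns of letters were searched on both strands in the RefSeq promoter windows (250 bases before to 50 bases after a gene's start, GRCh38.p14), which were matched for 8 of the 10 genes. The first was TTTCNNTTTC, a core of the interferon-stimulated response element (ISRE), and the second was TTCNNNGAA, the core of the gamma-activated site (GAS). The ISRE letters were found in the windows of 3 of these 8 genes and in 4.38% of the 27303 genes with a window, and the GAS letters in 1 of the 8 and in 9.38% of all. The windows of *IFIH1*, *EIF2AK2* and *TLR3* are shown because they held the ISRE letters, and that of *DDX58* because this gene had the largest difference of the 10 between siPDL1-1 and siNC with IFNγ on the log2 scale of CPM + 1. Letters are in lower case, 5′ to 3′ on the strand of the gene, with ISRE matches in capitals.
*IFIH1*, chr2:162318635-162318934, minus strand: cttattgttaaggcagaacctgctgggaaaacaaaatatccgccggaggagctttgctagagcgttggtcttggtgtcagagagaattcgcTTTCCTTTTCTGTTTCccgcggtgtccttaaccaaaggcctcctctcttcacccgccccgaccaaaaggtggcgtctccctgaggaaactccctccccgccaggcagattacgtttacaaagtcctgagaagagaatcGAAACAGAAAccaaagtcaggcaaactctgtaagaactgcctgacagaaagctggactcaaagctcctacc
*EIF2AK2*, chr2:37156931-37157230, minus strand: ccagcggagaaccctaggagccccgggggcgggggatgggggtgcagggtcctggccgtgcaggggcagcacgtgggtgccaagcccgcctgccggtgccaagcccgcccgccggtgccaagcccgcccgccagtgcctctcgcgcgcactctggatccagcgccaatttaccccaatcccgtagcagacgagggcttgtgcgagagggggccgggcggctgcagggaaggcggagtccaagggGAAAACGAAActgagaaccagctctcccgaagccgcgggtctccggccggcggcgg
*TLR3*, chr4:186068906-186069205, plus strand: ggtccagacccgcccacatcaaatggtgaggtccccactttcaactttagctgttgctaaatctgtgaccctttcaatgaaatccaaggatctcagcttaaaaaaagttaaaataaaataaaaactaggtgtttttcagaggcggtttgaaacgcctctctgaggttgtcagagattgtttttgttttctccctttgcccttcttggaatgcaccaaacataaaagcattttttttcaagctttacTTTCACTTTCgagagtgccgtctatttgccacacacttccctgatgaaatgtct
*DDX58*, chr9:32526147-32526446, minus strand: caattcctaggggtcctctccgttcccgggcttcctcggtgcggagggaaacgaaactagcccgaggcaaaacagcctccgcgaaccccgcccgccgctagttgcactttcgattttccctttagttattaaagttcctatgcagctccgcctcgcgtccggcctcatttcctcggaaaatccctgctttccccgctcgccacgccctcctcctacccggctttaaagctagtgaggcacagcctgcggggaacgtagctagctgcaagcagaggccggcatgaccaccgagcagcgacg
The *IFIH1* window held 3 matches, which began 159, 153 and 21 bases before the start site, and the first overlapped the next. In *EIF2AK2* the match began 6 bases before the start and in *TLR3* 4 bases before it. *TLR3* also held the GAS letters, from 178 and from 50 bases before the start. A match is a run of letters and not a shown binding site, and the *DDX58* window without one holds neither of these exact patterns.

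The libraries held from 17101069 to 55657393 reads, so that 1 read was worth 0.0187 to 0.0586 CPM. Among the sensors, *DDX58* lies at chr9:32455302-32526208, *IFIH1* at chr2:162267074-162318684, *DHX58* at chr17:42101404-42112714, *EIF2AK2* at chr2:37099210-37157065 and *ZBP1* at chr20:57603846-57620576, all on the minus strand, and *TLR3* at chr4:186069155-186088073 on the plus strand (GRCh38, as the table gives them). *MAVS* (chr20:3846799-3876123) and *TBK1* (chr12:64452090-64502114) lie on the plus strand and *TICAM1* (chr19:4815932-4831712) and *ADAR* (chr1:154582057-154628013) on the minus strand. *EIF2AK2* overlaps *GPATCH11* on the opposite strand by 35 bases while reads were counted on both strands. *GPATCH11* had a mean of 35.4 CPM against 276 CPM for *EIF2AK2*. *TBK1* overlaps *AC135279.3* on the opposite strand and *AC136977.1* on its own strand, whose means were 0.0820 and 0.00408 CPM. *CD274*, which encodes PD-L1 and is the siRNA target, was at 4.60 and 4.91 CPM in unstimulated siNC libraries, at 2.67 and 2.73 CPM with siPDL1-1 and at 3.57 and 3.45 CPM with siPDL1-2. After IFNγ it was at 71.2 and 76.0 CPM with siNC, at 60.9 and 66.7 CPM with siPDL1-1 and at 37.5 and 35.0 CPM with siPDL1-2. It was thus lower than siNC in each library of either siRNA under both conditions. Without IFNγ the difference passed the test for siPDL1-1 (-0.64, FDR = 1.76e-05) and was under the fold threshold for siPDL1-2 (-0.35, FDR = 0.00184). With IFNγ it passed the test for siPDL1-2 (95% confidence interval of the log2 fold change -1.16 to -0.84, FDR = 2.79e-05) and not for siPDL1-1 (-0.37 to -0.04, FDR = 0.0604). Of the glial markers, *VIM* (3139 to 3968 CPM), *CD44*, *SOX2*, *NES*, *SOX9* and *FABP7* (52.7 to 71.1 CPM) were high. *GFAP* was at 1.92 to 7.25 CPM, *S100B* at 2.40 to 5.92 CPM and *AQP4* and *OLIG2* at most at 0.364 CPM. Of the endothelial and epithelial markers, the keratin genes *KRT18* (60.3 to 95.3 CPM) and *KRT8* (27.7 to 35.4 CPM) were expressed. *VWF* was at 1.47 to 4.78 CPM and the rest of that list at most at 1.62 CPM. The 10 leukocyte markers summed to 0.847 to 1.25 CPM in the IFNγ-stimulated siPDL1-1 libraries and to 0.974 to 1.35 CPM in those of siNC. Their sum was highest in unstimulated siPDL1-1 libraries, at 1.74 to 2.06 CPM. *CSF1R* was the highest of them, at most at 1.13 CPM, whereas *MS4A1* was at 0 in all libraries and *CD3E* and *CD3D* had at most 1 read.

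**Figure D1:**
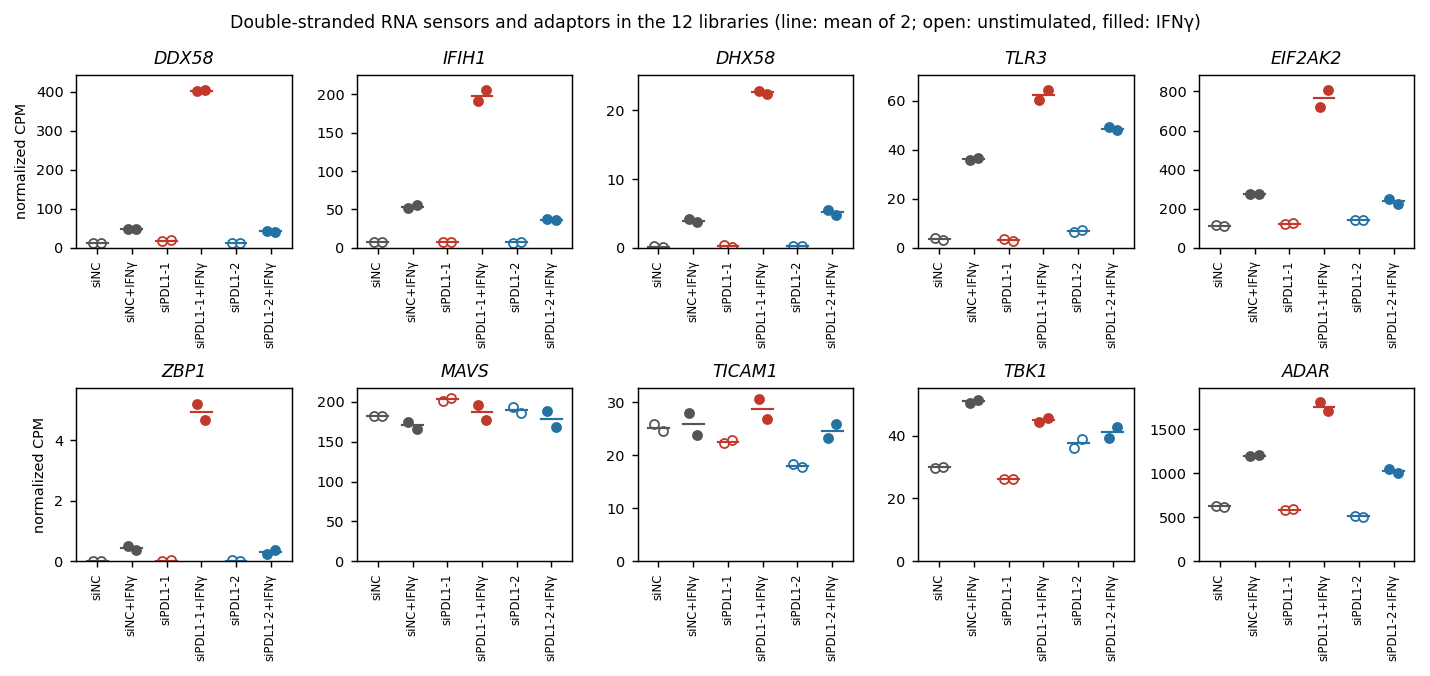
Normalized CPM of the 10 genes in each of the 12 libraries, on a linear axis from 0 with a scale of its own for each gene; points are libraries, open when unstimulated and filled with IFNγ, and lines are means of 2. In the panels of *DDX58*, *IFIH1*, *DHX58*, *TLR3*, *EIF2AK2*, *ZBP1* and *ADAR*, both IFNγ-stimulated siPDL1-1 libraries lie above all other libraries.

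The first comparison asked how IFNγ acted on the genes in siNC cells, which had themselves received an siRNA duplex. A gene was called when its FDR, the Benjamini-Hochberg adjusted p of limma over all 17989 genes tested, was under 0.01 and its fold change over 1.5. Of the 10 genes 7 rose and 0 fell, where 8.12% of all genes were called, 6.67% higher and 1.45% lower. Their median log2 fold change was 1.11, against 0.00 for all genes tested. With *ZBP1*, which had no read without IFNγ, set to its lower bound, the median was 1.61. That bound is a ratio of CPM without the added 1, so 1.61 mixes scales. Log2 fold changes are otherwise on the scale of CPM + 1, which understates the change of low genes, and CPM values are given beside them.

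The helicase genes rose. *DDX58* was at 11.6 and 12.1 CPM in unstimulated siNC libraries and at 47.9 and 49.0 CPM with IFNγ, 4.10-fold by the means (log2 fold change 1.95 ± 0.06 (SE), FDR = 2.19e-12). *IFIH1* went from 7.44 and 8.15 CPM to 52.3 and 55.3 CPM (2.64 ± 0.07, FDR = 1.84e-13). *DHX58* was nearly silent without IFNγ, with 0.245 and 0.0759 CPM or 8 reads in all, and reached 4.16 and 3.71 CPM (2.09 ± 0.13, FDR = 5.56e-09). None of these 3 genes had overlapping libraries.

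The endosomal sensor *TLR3* had the largest log2 fold change of the 10 genes on the scale of CPM + 1, from 4.11 and 3.19 CPM to 36.0 and 36.9 CPM (3.02 ± 0.10, FDR = 2.19e-12). That scale understates the change of low genes, and by the ratio of mean CPM *DHX58* rose more, 24.5-fold against 9.98-fold for *TLR3*. *EIF2AK2*, the kinase that acts on eIF2α, rose from 116 and 112 CPM to 274 and 278 CPM (1.27 ± 0.06, FDR = 1.39e-10). *ADAR*, the most abundant of the genes, rose from 628 and 618 CPM to 1202 and 1205 CPM (0.95 ± 0.04, FDR = 2.37e-11). The libraries of these genes did not overlap either.

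*ZBP1* was at 0 reads in both unstimulated siNC libraries and at 0.506 and 0.374 CPM with IFNγ, at least 3.95-fold higher when the floor is 3 reads in each library. Its log2 fold change of 0.52 ± 0.11 (FDR = 0.00164) stayed under the fold threshold. The gene was called with a pseudocount of 0.1, with either test on recovered reads, and without siNC IFNγ replicate 2. Downstream of the sensors, *TBK1* rose from 29.6 and 30.1 CPM to 50.5 and 51.4 CPM (0.75 ± 0.06, FDR = 1.09e-07). The adaptor *MAVS* was at 182 and 183 CPM without and at 175 and 166 CPM with IFNγ (-0.10, 95% confidence interval -0.22 to 0.02). *TICAM1* was at 25.9 and 24.5 CPM without and at 28.0 and 23.7 CPM with IFNγ (0.03, interval -0.15 to 0.21), with overlapping libraries. These intervals leave out a fold change of 1.5 in either direction for both adaptors.

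Within siPDL1-1 cells IFNγ raised 8 of the 10 genes, where 6.87% of all genes were called, 5.58% higher and 1.30% lower. *DDX58* was at 16.6 and 18.9 CPM in the unstimulated libraries and at 402 and 404 CPM with IFNγ, 22.7-fold by the means (4.43 ± 0.06, FDR = 4.89e-17). *IFIH1* went from 7.19 and 7.39 CPM to 191 and 205 CPM (4.58 ± 0.07, FDR = 1.30e-16). *DHX58* went from 0.377 and 0.165 CPM to 22.8 and 22.4 CPM (4.22 ± 0.13, FDR = 5.33e-13). In each of the 3 helicase genes both stimulated libraries lay far above both unstimulated ones. *TLR3* went from 3.48 and 2.82 CPM to 60.2 and 64.3 CPM (3.93 ± 0.10, FDR = 4.84e-14). *EIF2AK2* went from 123 and 125 CPM to 721 and 810 CPM (2.62 ± 0.06, FDR = 1.02e-14). *ZBP1* had 1 read in the unstimulated siPDL1-1 libraries together and reached 5.19 and 4.66 CPM (2.55 ± 0.11, FDR = 6.64e-11). The ratio of its summed reads was 384, with a counting interval of 68.4 to 15230. *ADAR* and *TBK1* also rose, *ADAR* from 580 and 592 CPM to 1815 and 1708 CPM (1.59 ± 0.04, FDR = 2.08e-14) and *TBK1* from 26.3 and 26.3 CPM to 44.2 and 45.6 CPM (0.75 ± 0.06, FDR = 9.74e-08). The adaptors were not called here, at 0.33 ± 0.08 for *TICAM1* (FDR = 0.00663) and at -0.12 ± 0.06 for *MAVS* (FDR = 0.103).

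Within siPDL1-2 cells IFNγ raised 6 of the 10 genes, where 5.26% of all genes were called, 3.62% higher and 1.65% lower. *DDX58* went from 13.6 and 13.6 CPM to 44.4 and 41.0 CPM (1.58 ± 0.06, FDR = 3.49e-11), *i.e.* 3.13-fold by the means. *IFIH1* went from 6.85 and 7.69 CPM to 37.2 and 35.9 CPM (2.19 ± 0.07, FDR = 2.51e-12). *DHX58* went from 0.288 and 0.244 CPM to 5.57 and 4.79 CPM (2.29 ± 0.13, FDR = 2.19e-09). All 3 helicase genes thus rose in this siRNA group too. *TLR3* went from 6.57 and 7.20 CPM to 49.4 and 47.9 CPM (2.66 ± 0.10, FDR = 1.28e-11). *EIF2AK2* went from 141 and 141 CPM to 252 and 225 CPM (0.75 ± 0.06, FDR = 9.95e-08). *ADAR* went from 518 and 502 CPM to 1050 and 1005 CPM (1.01 ± 0.04, FDR = 1.22e-11). The genes not called were *MAVS*, *TICAM1*, *ZBP1* and *TBK1*. *ZBP1* had 1 read in the unstimulated libraries and 0.235 and 0.364 CPM with IFNγ, a read ratio of 23.6 with a counting interval of 3.63 to 994 (0.36 ± 0.11, FDR = 0.0257), and it was called with a pseudocount of 0.1 and by the quasi-likelihood test of edgeR. *TBK1* was at 36.1 and 39.0 CPM without and at 39.4 and 42.7 CPM with IFNγ (0.13 ± 0.06, FDR = 0.125).

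**Figure D2:**
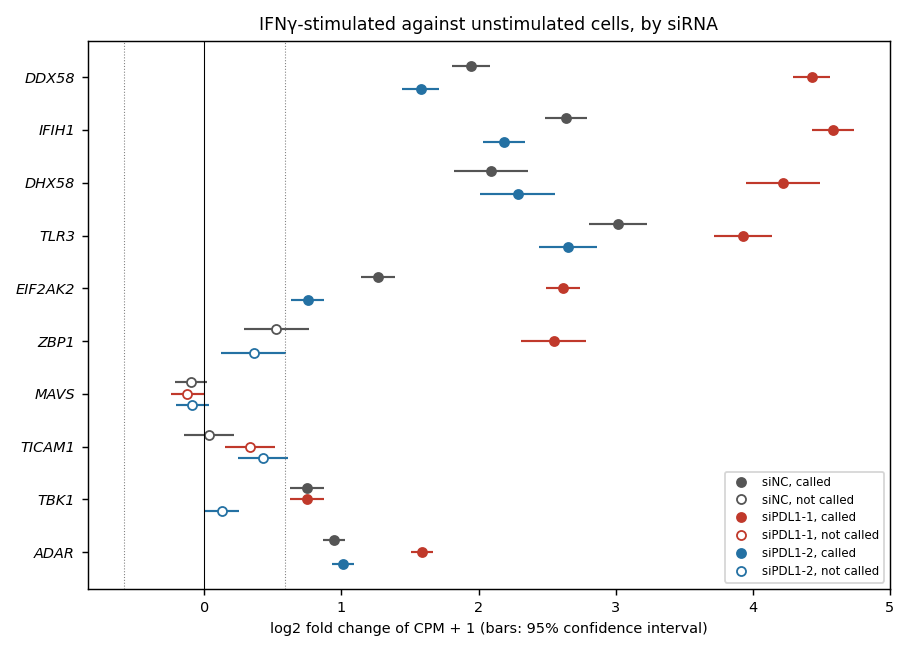
Log2 fold change of CPM + 1 from unstimulated to IFNγ-stimulated cells for each gene in siNC, siPDL1-1 and siPDL1-2 cells, with 95% confidence intervals; filled points were called, and dotted lines mark a fold change of 1.5. The siPDL1-1 points of *DDX58*, *IFIH1*, *DHX58*, *EIF2AK2*, *ZBP1*, *TLR3* and *ADAR* lie to the right of both other groups, whereas *MAVS* lies near 0 in all 3.

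The next comparison asked whether the siRNAs against *PD-L1* changed the genes without IFNγ. With siPDL1-1, 0 of the 10 genes were called, where 4.00% of all genes were, 2.55% higher and 1.45% lower. Here limma gave an unadjusted p under 0.05 for 4 of the 10, and edgeR and DESeq2 on recovered reads each called 0. The share of all genes with such an unadjusted p was not counted, here or below. Counts at that p therefore show nothing particular to the genes described. *DDX58* stood nearest to the threshold, at 16.6 and 18.9 CPM against 11.6 and 12.1 CPM in siNC (0.55 ± 0.06, FDR = 1.48e-05), with both siPDL1-1 libraries higher. It was called, at a log2 fold change of 0.63, without siPDL1-1 unstimulated replicate 1, and it was the 1 gene of the 10 with an FDR under 0.01 at any fold change, where 18.8% of all genes had one. The other 9 genes had log2 fold changes from -0.18 (*TBK1*) to 0.16 (*MAVS*).

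With siPDL1-2, 1 of the 10 genes was called without IFNγ, where 6.17% of all genes were, 4.84% higher and 1.33% lower. This was *TLR3*, at 6.57 and 7.20 CPM against 4.11 and 3.19 CPM in siNC (0.77 ± 0.10, FDR = 2.65e-05). *TLR3* was also lower with siPDL1-1 than with siPDL1-2, at 3.48 and 2.82 CPM (-0.93 ± 0.10, FDR = 8.33e-06), the 1 call among the 10 genes between these siRNAs without IFNγ, where 4.35% of all genes were called, 0.884% higher and 3.47% lower. At any fold change, 5 of the 10 genes differed between these siRNAs without IFNγ at an FDR under 0.01, where 24.1% of all genes did. *TICAM1*, the adaptor of TLR3, was at 18.3 and 17.7 CPM with siPDL1-2 against 25.9 and 24.5 CPM with siNC (-0.46 ± 0.08, FDR = 4.78e-04), a difference under the fold threshold. At any fold change, 5 of the 10 genes had an FDR under 0.01 with siPDL1-2 (*TLR3*, *TICAM1*, *TBK1*, *EIF2AK2* and *ADAR*), where 28.4% of all genes did. In *DHX58* and *ZBP1* the unstimulated libraries held 8 to 20 and 0 to 1 reads per group, so that a small difference between siRNAs was not detectable at this depth.

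With IFNγ, the siRNAs differed. In siPDL1-1 cells 6 of the 10 genes were higher than in siNC and 0 were lower, where 5.52% of the 17148 genes tested in the stimulated libraries were called, 3.76% higher and 1.76% lower. The median log2 fold change of the 10 genes was 1.11, against -0.01 for all genes tested. *DDX58* stood at 402 and 404 CPM against 47.9 and 49.0 CPM, 8.32-fold by the means (3.03 ± 0.06, FDR = 1.19e-10). *DHX58* stood at 22.8 and 22.4 CPM against 4.16 and 3.71 CPM (2.26 ± 0.11, FDR = 1.71e-07). *IFIH1* stood at 191 and 205 CPM against 52.3 and 55.3 CPM (1.86 ± 0.07, FDR = 1.57e-08). In these helicase genes both siPDL1-1 libraries lay well above both siNC libraries. *ZBP1* stood at 5.19 and 4.66 CPM against 0.506 and 0.374 CPM, 11.2-fold by the means (2.04 ± 0.13, FDR = 2.15e-06). *EIF2AK2* stood at 721 and 810 CPM against 274 and 278 CPM (1.47 ± 0.07, FDR = 2.11e-07). *TLR3* showed the smallest of the called differences, at 60.2 and 64.3 CPM against 36.0 and 36.9 CPM (0.76 ± 0.07, FDR = 2.03e-05). *ADAR* was higher in both libraries, at 1815 and 1708 CPM against 1202 and 1205 CPM, but by less than the fold threshold (0.55 ± 0.05, FDR = 2.83e-05), and it was called, at 0.59, without siPDL1-1 IFNγ replicate 2.

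The adaptors and the kinase downstream of the sensors were not called. *MAVS* was at 196 and 178 CPM with siPDL1-1 and IFNγ (0.13, 95% confidence interval -0.03 to 0.29). *TICAM1* was at 30.5 and 26.9 CPM (0.15, interval -0.07 to 0.37) and its libraries overlapped those of siNC. *TBK1* was at 44.2 and 45.6 CPM, below both siNC libraries (-0.18, interval -0.33 to -0.03, FDR = 0.0782).

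In siPDL1-2 cells with IFNγ, 0 of the 10 genes were called against siNC, where 2.91% of all genes were, 1.80% higher and 1.11% lower. An unadjusted limma p under 0.05 was found for 7 of the 10, with no share over all genes to set beside it, and edgeR and DESeq2 each called 0. At any fold change 2 had an FDR under 0.01, where 9.67% of all genes did. *IFIH1* was lower, at 37.2 and 35.9 CPM against 52.3 and 55.3 CPM (-0.54 ± 0.07, FDR = 4.40e-04). *TLR3* was higher, at 49.4 and 47.9 CPM against 36.0 and 36.9 CPM (0.41 ± 0.07, FDR = 0.00220). For *DDX58* the difference was -0.18, with a 95% confidence interval of -0.31 to -0.04. The comparisons with siNC share the siNC libraries and are given side by side for that reason. Their direct comparison does not use siNC. With IFNγ, siPDL1-1 was above siPDL1-2 in 6 of the 10 genes and below it in 0, where 2.11% of all genes were called, 1.73% higher and 0.385% lower. The log2 differences were 3.21 ± 0.06 for *DDX58*, 2.40 ± 0.07 for *IFIH1*, 2.19 ± 0.13 for *ZBP1*, 1.94 ± 0.11 for *DHX58*, 1.68 ± 0.07 for *EIF2AK2* and 0.78 ± 0.05 for *ADAR*, with FDR from 8.61e-11 to 3.20e-06. *TLR3*, higher with either siRNA than with siNC, differed between them by 0.35 ± 0.07 (FDR = 0.00749), which is under the fold threshold.

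**Figure D3:**
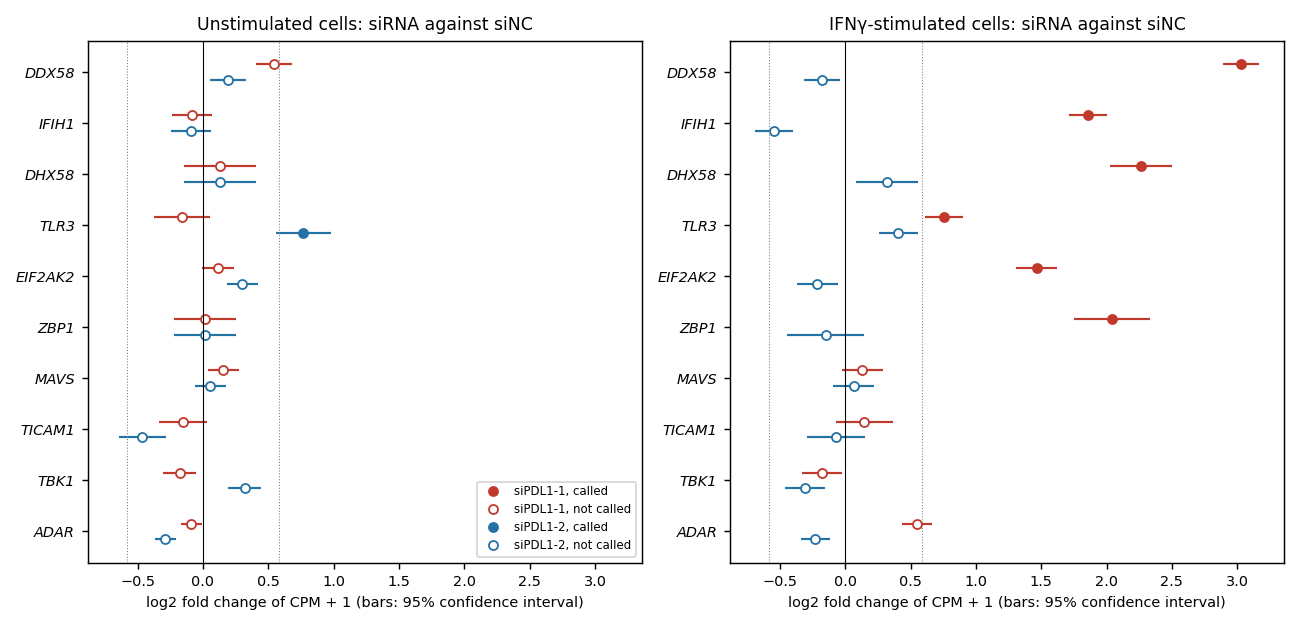
Log2 fold change of CPM + 1 of siPDL1-1 and siPDL1-2 against siNC for each gene, without IFNγ (left) and with IFNγ (right), with 95% confidence intervals; filled points were called, and dotted lines mark a fold change of 1.5. Without IFNγ the single filled point is *TLR3* with siPDL1-2, at 0.77, and with IFNγ all 6 filled points are of siPDL1-1, the farthest *DDX58* at 3.03.

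Whether an siRNA effect differed with and without IFNγ was tested directly, as the effect in stimulated cells minus that in unstimulated cells. For siPDL1-1 this difference was called in 7 of the 10 genes, all upward, where 0.967% of all genes were called, 0.889% upward and 0.0778% downward. It was 2.48 ± 0.09 in *DDX58* (FDR = 2.45e-10), 1.94 ± 0.10 in *IFIH1* (FDR = 1.05e-08) and 1.35 ± 0.08 in *EIF2AK2* (FDR = 4.24e-08). It was 0.92 ± 0.14 in *TLR3* (FDR = 0.00112) and 0.64 ± 0.05 in *ADAR* (FDR = 1.89e-06). In *DHX58* (2.13 ± 0.18, FDR = 2.35e-06) and *ZBP1* (2.02 ± 0.16, FDR = 8.71e-07) the call did not hold in the quasi-likelihood test of edgeR on recovered reads (1.58, FDR = 0.249 for *DHX58*; 1.27, FDR = 0.906 for *ZBP1*). Both genes had few reads or none without IFNγ, where a ratio is poorly measured. *MAVS* (-0.03 ± 0.08), *TBK1* (0.00 ± 0.08) and *TICAM1* (0.30 ± 0.12, FDR = 0.237) were not called.

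For siPDL1-2 the same difference was called in 1 of the 10 genes, *TBK1*, downward (-0.62 ± 0.08, FDR = 1.22e-04), where 7.62% of all genes were called, 1.83% upward and 5.78% downward. *TBK1* was at 36.1 and 39.0 CPM with siPDL1-2 against 29.6 and 30.1 CPM with siNC in unstimulated cells, and at 39.4 and 42.7 CPM against 50.5 and 51.4 CPM with IFNγ, so that the siPDL1-2 libraries were above siNC before and below it after IFNγ. The call was lost with DESeq2 size factors (-0.58), without siPDL1-2 unstimulated replicate 2 (-0.57) and without siPDL1-2 IFNγ replicate 1 (-0.57). *EIF2AK2* (-0.51 ± 0.08), *IFIH1* (-0.45 ± 0.10) and *DDX58* (-0.37 ± 0.09) also had an FDR under 0.01, below the fold threshold, which makes 4 of the 10 genes where 17.0% of all genes had one.

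Levels between genes were compared per kilobase of the canonical transcript of GENCODE release 44. In unstimulated siNC cells *ADAR* led with 94.3 ± 1.02 CPM per kb (SD, n = 2), followed by *MAVS* with 15.6, *EIF2AK2* with 11.4, *TBK1* with 9.89, *TICAM1* with 9.38, *DDX58* with 2.56, *IFIH1* with 2.18, *TLR3* with 0.607, *DHX58* with 0.0619 and *ZBP1* with 0. The libraries of no neighbours in this order overlapped (0 pairs). *DDX58* was the 6th of the 10 in 5 of the 6 groups and the 2nd, with 87.0 CPM per kb, in siPDL1-1 cells with IFNγ, behind *ADAR* with 266 and ahead of *EIF2AK2* with 76.7. In that group *TICAM1* and *TLR3* overlapped, in stimulated siNC cells *IFIH1* overlapped *MAVS* and *DDX58* overlapped *TICAM1*, and in stimulated siPDL1-2 cells *DDX58* overlapped *TICAM1*. With the length of all annotated exons in place of the canonical transcript *ADAR* stayed first in all 6 groups, but *DDX58* was the 3rd in stimulated siPDL1-1 cells and *TBK1* moved from the 3rd to the 8th place in stimulated siNC cells.

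The genes with the most similar pattern over the 6 group means were sought among 14269 others with a mean of at least 1 CPM, by the mean absolute difference of log2 values of CPM + 1 centred on each gene's mean. Nearest to *DDX58* were *CMPK2* (0.19), *OAS3* (0.21) and *SAMD9* (0.23), and nearest to *IFIH1* were *SOCS1* (0.22), *OAS3* (0.24) and *SAMD9* (0.24). The same *SAMD9* (0.16), *SOCS1* (0.20) and *OAS3* (0.23) were nearest to *DHX58*. *EIF2AK2* lay nearest to *TDRD7* (0.13), *ZC3HAV1* (0.14) and *IFIT5* (0.15), and *ZBP1* to *HSH2D* (0.10), *TDRD7* (0.13) and *IL4I1* (0.19). *TLR3* lay nearest to the complement genes *CFB* (0.19) and *C2* (0.21) and to *UBA7* (0.20), and *ADAR* to *BATF3* (0.09), *AC006160.1* (0.10) and *IL22RA1* (0.12). The smallest distances were those of *MAVS* (*DOCK5*, *DNMT3A* and *ATP1B3*, each 0.02), *TICAM1* (*TMEM109*, 0.04) and *TBK1* (*ATXN7*, 0.03). This distance is not scaled to the range of a gene, so genes that change little lie close to each other whatever their pattern. The centred values of *MAVS* ran only from -0.12 to 0.14, and its small distances are no sign of a shared pattern.

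The rest of the pathway was followed in 7 lists of genes by role. The list of pathway outputs (interferons, chemokines and interferon-stimulated genes) held 15 genes, of which 11 were tested. With siPDL1-1, 10 of these were higher than with siNC in stimulated cells. The median log2 fold change of the 11 was 2.83, or 2.90 with *IFNL2* at its lower bound. That gene had no read in stimulated siNC cells, and its bound leaves out the added 1. *IFNB1*, *IFNL1*, *IFNL2* and *CCL5* passed the read filter only through the stimulated siPDL1-1 libraries. The count, the median and the tests of these genes were thus partly set by that filter. Their FDRs are therefore not given. The other called outputs, such as *RSAD2* and *IFIT1*, passed it in stimulated siNC cells too. *RSAD2*, which encodes the antiviral enzyme viperin, was at 54.3 ± 0.37 CPM against 2.22 ± 0.06 CPM (SD, n = 2; 4.10 ± 0.11 (SE), FDR = 1.13e-09). *CCL5*, a chemokine gene induced by IRF3, was at 13.1 ± 1.07 CPM against 0.214 ± 0.068 CPM (3.54 ± 0.13). *IFIT1*, whose product binds viral RNA, was at 597 ± 22.8 CPM against 52.2 ± 0.92 CPM (3.49 ± 0.06, FDR = 5.00e-11). The interferon genes, named here after their values were seen, were close to silent in all other groups. *IFNL1* was at 1.67 and 1.69 CPM in the stimulated siPDL1-1 libraries and had 1 read in those of siNC together (1.41 ± 0.12). *IFNB1* was at 0.511 and 1.22 CPM in the stimulated siPDL1-1 libraries, with 44 reads together, and had 4 reads in those of siNC (0.82 ± 0.17). Its call was lost without siPDL1-1 IFNγ replicate 2 (0.54).

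Of the 7 genes of the OAS pathway, in which OAS enzymes bind double-stranded RNA and make a second messenger, 4 were higher with siPDL1-1 and IFNγ, and the median of the list was 2.76. *OAS2* was at 370 ± 2.87 CPM against 17.3 ± 0.59 CPM (4.34 ± 0.07, FDR = 5.00e-11), and *OAS1* at 237 ± 3.75 CPM against 11.1 ± 0.46 CPM (4.30 ± 0.08, FDR = 9.03e-11). *OASL* had a log2 fold change of 3.48 ± 0.08 (FDR = 3.05e-10). Of the 19 other double-stranded RNA binding proteins and helicases 5 were higher, with *DDX60L* (2.09), *DDX60* (1.81) and *ZNFX1* (1.64) in front and a list median of -0.04.

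Of the 24 tested genes of RIG-I-like receptor signalling 3 were higher with siPDL1-1 and IFNγ, at a median of 0.14. They were *TRIM25* (1.30), the ubiquitin ligase that activates RIG-I, *IKBKE* (0.82), a kinase related to TBK1, and *TBKBP1* (0.74). In the endosomal Toll-like receptor list 2 of 14 tested genes were higher, the adaptor *MYD88* (1.06) and *UNC93B1* (0.69), the chaperone of endosomal receptors, at a median of -0.09. *UNC93B1* lost its call without siPDL1-1 IFNγ replicate 1 (0.53) or siNC IFNγ replicate 2 (0.64), and *TBKBP1* without siPDL1-1 IFNγ replicate 1 (0.64). In the list of Z-nucleic acid sensing and necroptosis 1 of 6 tested genes was higher, *MLKL* (0.97), the effector of necroptosis, at a median of 0.11, and *RIPK3*, which joins ZBP1 to MLKL, had at most 1 read in a library. Of the 16 genes of the PKR and eIF2 pathway 0 were called by limma, edgeR or DESeq2, at a median of -0.16. An unadjusted limma p under 0.05 was found for 10 of them, and the share of all genes at that p was not counted. Over all genes tested the median was -0.01 and 5.52% were called.

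With siPDL1-2 and IFNγ, 2 genes of all 7 lists were called against siNC and both were lower, where 2.91% of all genes were called and 1.11% were lower. They were 1 of the 24 RIG-I-like receptor signalling genes and 1 of the 14 of the endosomal Toll-like receptor pathway, namely the NF-κB inhibitor *TNFAIP3* (-0.87 ± 0.08, FDR = 1.00e-04) and the kinase *IRAK2* (-0.62 ± 0.11, FDR = 0.00325), whose call was lost without either siPDL1-2 IFNγ library (-0.50 and -0.75). Without IFNγ, genes of these lists were called with siPDL1-1 although 0 of the 10 sensors and adaptors were. In the OAS list 3 of 7 and in the outputs 4 of 11 tested genes were higher. In RIG-I-like receptor signalling 1 of 24 and in the other binding proteins and helicases 1 of 19 were higher, and 2 of 16 in the PKR and eIF2 list were lower. Over all genes 4.00% were called, 2.55% higher and 1.45% lower. *OAS1* (1.54 ± 0.10), *OASL* (1.32 ± 0.10) and *OAS2* (1.30 ± 0.10) were higher, as were *IFIT3* (1.32 ± 0.07), *IFIT2* (1.17 ± 0.06), *IFIT1* (1.00 ± 0.06) and *ISG15* (0.68 ± 0.12). *TBKBP1* (0.59) and *SIDT2* (0.75) were also higher, and *DDIT3* (-0.68) and *PPP1R15A* (-0.59), which are targets of the eIF2 stress response, were lower. *TBKBP1*, *PPP1R15A* and *ISG15* lost their calls without siNC unstimulated replicate 1 (0.50, -0.56 and 0.57) and without siPDL1-1 unstimulated replicate 2 (0.58, -0.56 and 0.72), and *ISG15* also without siPDL1-1 unstimulated replicate 1 (0.65). With siPDL1-2 and no IFNγ, *ATG5* (0.84) and *DICER1* (0.61) were higher and *TNFAIP3* (-1.10), *IRAK1* (-0.66) and *TRAF2* (-0.61) lower. Of 24 tested genes of RIG-I-like receptor signalling 1 was higher and 2 were lower. In the endosomal Toll-like receptor list 1 of 15 was lower, and 1 of the 19 other binding proteins and helicases was higher. Over all genes 6.17% were called, 4.84% higher and 1.33% lower. *DICER1* and *TRAF2* lost their calls without siNC unstimulated replicate 1 (0.57 and -0.56) and each without 1 siPDL1-2 library. In that comparison 0 of the 7 genes of the OAS pathway and 0 of the 11 outputs were called by limma, edgeR or DESeq2. An unadjusted limma p under 0.05 was found for 4 and 3 of them, and the share of all genes at that p was not counted. Some of the outputs, such as *IFNL1* and *IFNL2*, had no read in either group and could not be called.

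**Figure D4:**
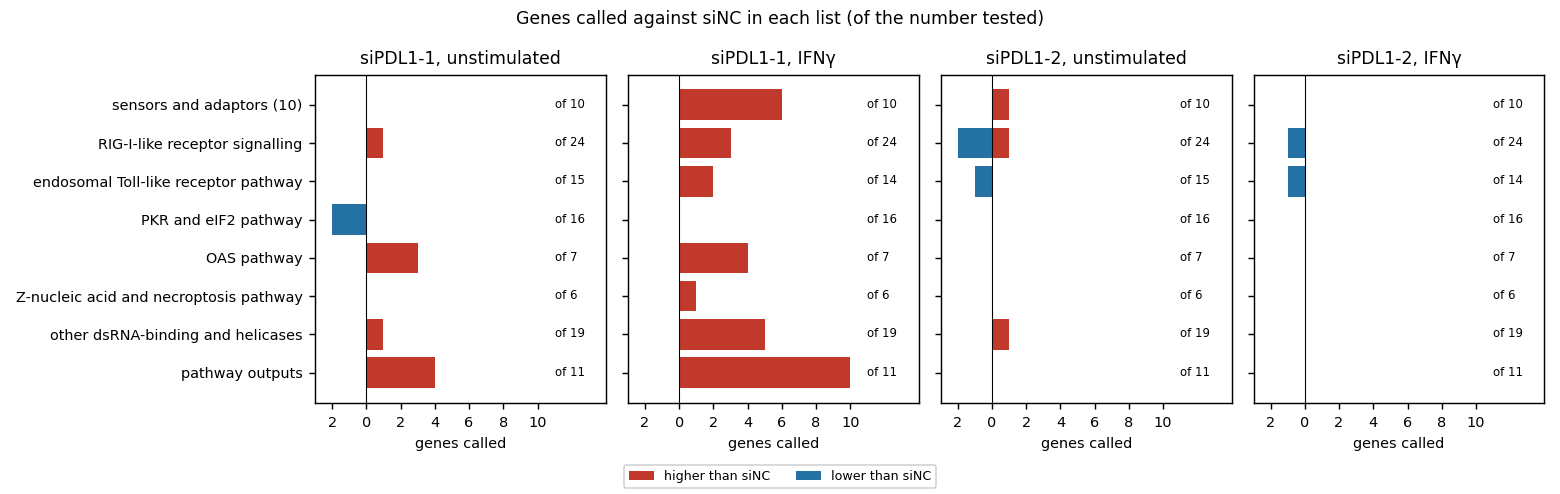
Number of genes called against siNC in the 10 sensors and adaptors and in the 7 lists of the pathway, for siPDL1-1 and siPDL1-2 without and with IFNγ; bars to the right are higher and bars to the left lower than siNC, and the number tested stands at the right of each bar. With siPDL1-1 and IFNγ the bars reach 6 of 10 sensors and adaptors and 10 of 11 outputs, and with siPDL1-2 and IFNγ there are 2 calls, both lower. Some of these outputs passed the read filter only through the stimulated siPDL1-1 libraries.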

How the data were processed

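RNA-seq libraries of U251 cells were grouped by siRNA and IFNγ from the sample labels, and per the methods the libraries came from 2 independent experiments. The signal values are CPM, deposited by the authors after quality trimming, alignment to Ensembl GRCh38, counting without regard to strand and normalization, all in CLC Genomics Workbench. Each value divided by the size of 1 read gave a whole number (100% of values, tolerance 0.02), and these reads were used for filtering and count tests. Scaling factors ran from 0.959 to 1.04.

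limma (version 3.58.1, R 4.3.3; trend and robust) was fitted to log2 of CPM + 1 over all genes passing filterByExpr on recovered reads (minimum count 10, minimum total count 15). Stimulated siRNA comparisons used the 6 stimulated libraries as 3 groups, and all others the 12 libraries as 6 groups. A gene was called at FDR under 0.01 and fold change over 1.5. On data simulated for IFNγ in siNC, 200 of 200 genes changed by 1.5 (log2) were recovered among 17677, with 1 false call. The changed genes were drawn only from the better expressed ones, and the simulated spread was fixed in advance. The simulation thus says nothing about calls on low genes or about the real spread between replicates. Alternatives were another pseudocount, no filter, DESeq2 (version 1.42.0) and its size factors, edgeR (version 4.0.16), a replicate block, no fold threshold and leaving out each library. Motifs were counted with Python (version 3.11.15).

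The genes, the pathway lists and the tests were chosen with earlier results of these data known. Named genes are the 10 genes, *CD274*, overlapping genes, up to 3 called genes per list with the largest change against siNC, and the 3 nearest in pattern; others named were chosen after their values were seen. Intervals of read ratios and the floor of 3 reads per library cover counting error only. The results for some genes are not reported here.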

Additional observations from a re-analysis of the deposited data

Results flagged for a closer look

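The effect of siPDL1-1 against siNC differed between stimulated and unstimulated cells, by the interaction term of limma, in 7 of the 10 genes, where 0.967% of all genes were called. The difference on the log2 scale of CPM + 1 was 2.48 in *DDX58*, 2.13 in *DHX58*, 2.02 in *ZBP1*, 1.94 in *IFIH1*, 1.35 in *EIF2AK2*, 0.917 in *TLR3* and 0.638 in *ADAR*. In edgeR *DHX58* (FDR = 0.249) and *ZBP1* (FDR = 0.906) were not called. The effect of siPDL1-2 differed in 1 of the 10 genes, *TBK1*, by -0.624, a share near the 7.62% of all genes called. *TBK1* lost this call with DESeq2 size factors (-0.58), without siPDL1-2 unstimulated replicate 2 (-0.57) and without siPDL1-2 IFNγ replicate 1 (-0.57). Groups of 2 libraries were too small to test a library for standing apart within its group.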

How the results depend on the processing

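Of 1317 values of the 10 genes under alternatives, 1282 kept their side of the threshold, 7 lost the call, 28 gained it, and 0 called values changed sign. The setting without the fold threshold reused the main fit, so it could add calls but could not lose one or change a sign. Its values are in this tally, and its added calls are among the 28. Of the values not called, 33 changed sign, and DESeq2 gave no adjusted p for 3 others, all of *ZBP1*. With DESeq2 size factors, 0 genes were called for the siPDL1-2 effect that differed with IFNγ. Without the fold threshold, the counts of the 10 genes called were 1 for siPDL1-1 and 5 for siPDL1-2 against siNC and 5 between the siRNAs without IFNγ, 2 for siPDL1-2 against siNC with IFNγ, and 4 for the siPDL1-2 effect that differed with IFNγ. Leaving out 1 library, the count ran from 0 to 1 for siPDL1-1 against siNC without IFNγ (1 without siPDL1-1 unstimulated replicate 1) and from 0 to 1 for the siPDL1-2 effect that differed with IFNγ (0 without siPDL1-2 unstimulated replicate 2); the lone library left in a group was assumed to vary like the other groups. *DHX58* lost its call for the siPDL1-1 effect that differed with IFNγ also with a pseudocount of 0.1 and in DESeq2. *RSAD2* (3.72) turned to -1.79 in edgeR and -0.88 in DESeq2 for that difference; it had no read in unstimulated siNC cells. Counts over all genes called moved by more than 1.5 times without the fold threshold and without a siPDL1-2 IFNγ library: siPDL1-2 against siNC fell from 499 to 172 without replicate 1 and 143 without replicate 2, siPDL1-1 against siPDL1-2 from 362 to 224 and 213, and the siPDL1-2 effect that differed with IFNγ from 1370 to 892 without replicate 2. Without the fold threshold, they rose to 4900 (from 1460), 4122 (from 1236) and 3080 (from 947) for IFNγ in siNC, siPDL1-1 and siPDL1-2. They rose to 3379 (from 720) for siPDL1-1 and 5107 (from 1110) for siPDL1-2 against siNC and 4338 (from 783) between them without IFNγ, to 2692 (from 946), 1659 (from 499) and 830 (from 362) for the same comparisons with IFNγ, and to 293 (from 174) and 3067 (from 1370) for the siPDL1-1 and siPDL1-2 effects that differed with IFNγ. The 3 nearest genes, recomputed after seeing the data, shared at least 2 for 10 genes with DESeq2 size factors and for 7 with a pseudocount of 0.1. Causes were not tested.

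The correlation of replicate differences ran from -0.187 to 0.252 over 15 pairs of groups and passed 0.1 in 2. The highest value was between stimulated siNC and stimulated siPDL1-1 libraries. These correlations do not settle whether equal replicate numbers mark the same experiment. With a replicate block, 7, 8 and 6 of the 10 genes were called for IFNγ in siNC, siPDL1-1 and siPDL1-2, 6 for siPDL1-1 against siNC with IFNγ and 7 for its difference with IFNγ, and no count of the 10 genes changed. Over all 17989 genes tested the block gave 1467, 1230 and 942 calls for IFNγ in siNC, siPDL1-1 and siPDL1-2. For siPDL1-1 against siNC with IFNγ it gave 933 calls among 17148 genes, and for its difference with IFNγ 166 among 17989.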

Other observations

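In siNC cells IFNγ also moved genes around the sensors, where 8.12% of all genes were called and 6.67% were higher. In the OAS list 4 of 7 genes rose, with *OAS2* from 0.112 ± 0.020 CPM to 17.3 ± 0.59 CPM (SD, n = 2; log2 fold change 4.04 ± 0.10 (SE), FDR = 6.10e-14). Of the other double-stranded RNA binding proteins and helicases 4 of 19 rose in siNC, led by *DDX60* (3.35 ± 0.06), and of the RIG-I-like receptor signalling list 5 of 24 rose, led by *NLRC5* (3.30 ± 0.07) and *CYLD* (1.04 ± 0.05). The PKR and eIF2 list had 0 of 16 genes called by limma, edgeR or DESeq2. In it 10 genes had an unadjusted limma p under 0.05, and the share of all genes at that p was not counted. These genes were named after their values were seen.

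Among the genes of the lists that did not pass the filter in stimulated cells, *TLR8* had 0 reads in all 12 libraries, *TLR7* at most 2 and *TLR9* at most 19 reads in a library, and *IFNL3* had at most 11 reads.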
